A study of Rattus norvegicus with 3 samples.

Results

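Phagocytic and disease-associated microglia genes are a set of 10 genes, namely Trem2, Tyrobp, Apoe, Lpl, Spp1, Gpnmb, Cd68, Itgax, Axl and Lgals3, chosen by their symbols from the 18425 genes of the expression table. All 10 were found, and all 10 had reads in each of the 3 libraries. The libraries were made from retinas of wild-type Sprague Dawley rats that received 1 µl into the vitreous at P1 and were harvested at P4. One library came from retinas injected with citrate buffer (pH 4.5), one from retinas injected with saline and one from retinas injected with STZ (10 µg), a glucosamine-nitrosourea compound that alkylates DNA. STZ was dissolved in citrate buffer, so the buffer library is the vehicle control. With 1 library per group, no difference below has a replicate check or a p-value, and the treatment cannot be told apart from whatever else set one library apart from another. For the study's tests of function and morphology, STZ went into one eye and citrate buffer into the other eye of each animal. Whether the buffer and STZ libraries came from such paired eyes, and how many retinas or animals entered a library, is not given in the sources used here.

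Microglia are the resident macrophages of the retina. They remove dying cells and synapses during development, and when they meet many dying cells or lipid debris they take up a phagocytic program first described around amyloid plaques and called disease-associated. In that program the surface receptor Trem2 binds lipids and lipoproteins and signals through its adaptor Tyrobp, genes of lipid handling and lysosomes are turned up, and several genes that keep resting microglia in their surveying state are turned down.

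The 3 libraries were of like depth, with 21992749 reads in buffer, 21977876 in saline and 22031287 in STZ. Levels are given as FPKM, fragments scaled to transcript length and to sequencing depth, which can be compared between genes, and as reads, which as levels can be compared only within a gene. Where shares of reads among genes are given, they depend on transcript length too. A gene's share can also fall between libraries while its reads rise. The fold of a gene is the ratio of (FPKM + 1) in the 2 libraries, and a gene was counted as higher or lower when the log2 fold was beyond 0.62 or -0.62. A count ratio divides the share of reads that a gene took in one library by its share in the other, with an exact 95% interval. PCR copies were not told apart from molecules, so these intervals cover counting error only.

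The neural and glial genes of the retina were well detected in every library, with summed FPKM of 8 ganglion cell genes between 262 and 313 and of 7 Müller glia genes between 702 and 848. The 14 genes that mark microglia and macrophages, Aif1 and Csf1r among them, had 1228, 1558 and 2960 reads (buffer, saline, STZ). None of the 14 was at 0 reads in any library. In bulk RNA, more cells of a type and more RNA per cell cannot be told apart.

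Most of the 10 genes were higher in the STZ library. By the fold rule, 6 of the 10 were higher in STZ than in buffer and 0 were lower, where 2.25% of all genes were higher and 1.04% were lower. The 6 were Gpnmb, Lgals3, Tyrobp, Apoe, Cd68 and Trem2. Against saline 7 of the 10 were higher and 0 lower, where 2.04% of all genes were higher and 1.75% lower. The 7 were the same 6 genes and Spp1. Both comparisons share the STZ library. The median log2 fold of the 10 genes was 1.58 against buffer and 1.09 against saline, beside medians of 0.02 and 0.00 over all genes. The counting interval of the ratio lay above 1 for 8 of the 10 against buffer, beside 21.7% of all genes, and for 9 of the 10 against saline, beside 22.1%. It lay below 1 for 0 of the 10 in both comparisons, beside 15.5% and 19.5% of all genes. With FPKM and the pseudocount of 1, Axl, Itgax and Lpl did not pass the fold rule in any comparison. With stricter thresholds of 2 and 0.5, 6 of the 10 were higher in STZ than in buffer (0.901% of all genes) and 6 than in saline (0.706%), and 0 were lower in either (0.282% and 0.461%).

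**Figure D1:**
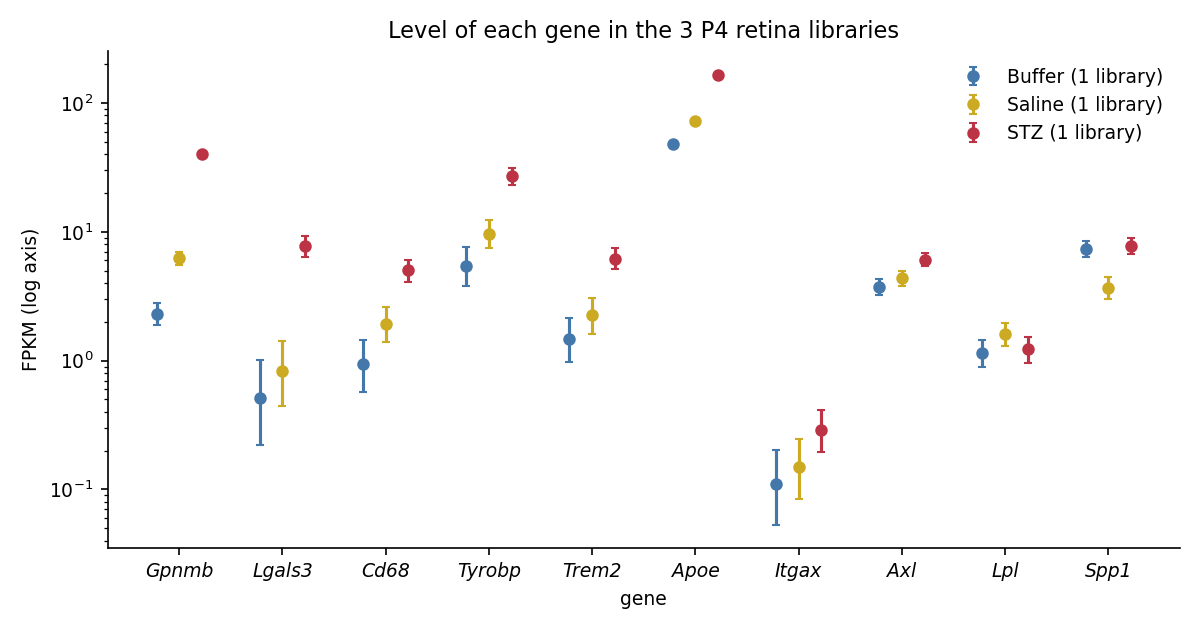
FPKM (log axis) of the 10 genes in the buffer, saline and STZ libraries, ordered by their count ratio of STZ to buffer, with 1 point per library and bars for the 95% counting interval. Gpnmb stood at 2.32, 6.25 and 39.9 FPKM in buffer, saline and STZ, while Lpl and Spp1 had levels in STZ whose bars overlapped those in buffer.

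Trem2 and Tyrobp, the receptor and the adaptor through which it signals, were both higher in STZ. Trem2 had 28 reads in buffer, 41 in saline and 116 in STZ, or 1.48, 2.25 and 6.2 FPKM. For Trem2 the folds were 2.9 over buffer and 2.22 over saline, with count ratios of 4.14 (2.72 to 6.49) and 2.82 (1.96 to 4.13). Tyrobp, which carries the activation motif that Trem2 lacks and also serves other receptors of myeloid cells, had 36, 63 and 180 reads, or 5.46, 9.66 and 27.1 FPKM. Its fold was 4.34 against buffer and 2.63 against saline, with count ratios of 4.99 (3.47 to 7.35) and 2.85 (2.13 to 3.86). The ratios of the 2 genes did not differ beyond counting error, with a ratio of ratios of 1.21 against buffer (0.67 to 2.16) and 1.01 against saline (0.621 to 1.63). The adaptor was the more abundant of the pair by FPKM in all 3 libraries.

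Apoe, the secreted apolipoprotein that carries lipids between cells and is a ligand of Trem2, had the highest FPKM of the 10 genes in every library. It had 961, 1449 and 3305 reads (buffer, saline, STZ), or 47.8, 72.2 and 164 FPKM. The fold was 3.38 against buffer and 2.26 against saline, with count ratios of 3.43 (3.19 to 3.69) and 2.28 (2.14 to 2.42). Apoe gave 58.5% of the reads of the 10 genes in buffer (exact binomial interval 56.1 to 60.9) and 52.4% in STZ (51.2 to 53.7). In the retina Müller glia and astrocytes also make Apoe. The 7 Müller glia genes summed to 71597, 73343 and 59691 reads, of which Dkk3 held 52915, 54670 and 42238. By gene they went both ways, with 3 of the 7 intervals of STZ to buffer above 1, 3 below 1 and a median log2 fold of -0.03. The 6 astrocyte genes summed to 1143, 1186 and 555 reads. The part of these glia in the Apoe values was not tested.

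Lpl, lipoprotein lipase, which frees fatty acids from triglycerides and is a marker of the later stage of the program, stood apart from Apoe. It had 70, 99 and 75 reads (buffer, saline, STZ), or 1.14, 1.61 and 1.22 FPKM. The count ratio of STZ to buffer was 1.07 (0.762 to 1.5), and that of STZ to saline was 0.756 (0.552 to 1.03). The intervals leave out a rise over buffer of the size seen in Apoe, whose interval started at 3.19.

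Gpnmb had the largest fold of the 10 genes against buffer, in STZ and in saline. It encodes a membrane glycoprotein of lysosomes and melanosomes that phagocytes make when lipids load their lysosomes. Gpnmb had 106 reads in buffer, 285 in saline and 1825 in STZ, or 2.32, 6.25 and 39.9 FPKM. Its fold of 12.3 against buffer ranked 7 of 18425 genes, and its fold of 5.64 against saline ranked 15. Against saline the first place among the 10 depended on the scale, and by count ratio it went to Lgals3. The count ratios were 17.2 (14.1 to 21.1) and 6.39 (5.64 to 7.26). Gpnmb gave 6.45% of the reads of the 10 genes in buffer (exact binomial interval 5.31 to 7.75), 12.2% in saline (10.9 to 13.6) and 29.0% in STZ (27.8 to 30.1). Pigment cells also make Gpnmb, and 9 genes of the pigment epithelium and of melanocytes summed to 1050, 2148 and 1092 reads (buffer, saline, STZ). The ratio of the pigment genes was 1.04 (0.953 to 1.13) for STZ to buffer and 2.05 (1.9 to 2.21) for saline to buffer. The part of pigment cells in the Gpnmb values was not tested.

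Lgals3 encodes galectin-3, a lectin that phagocytes secrete and that also gathers on damaged lysosomes. It had 8, 13 and 122 reads (buffer, saline, STZ), or 0.51, 0.83 and 7.72 FPKM. Its folds were 5.77 over buffer and 4.77 over saline. The count ratios were 15.2 (7.49 to 36.1) and 9.36 (5.27 to 18.1), wide because the controls held few reads. Lgals3 and Gpnmb did not differ in their ratios beyond counting error, with a ratio of ratios of 1.13 for Gpnmb to Lgals3 against buffer (0.464 to 2.38) and of 1.47 for Lgals3 to Gpnmb against saline (0.812 to 2.87).

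Cd68, a heavily glycosylated protein of the lysosomes of macrophages that is widely used to stain phagocytic microglia, had 20, 41 and 107 reads (buffer, saline, STZ), or 0.94, 1.93 and 5.01 FPKM. The fold was 3.1 against buffer and 2.05 against saline, with count ratios of 5.34 (3.29 to 9.09) and 2.6 (1.8 to 3.83). The ratio of Lgals3 to buffer exceeded that of Cd68 by 2.85 times (1.14 to 7.77). In the order of ratios against buffer, Cd68, Tyrobp, Trem2, Apoe, Itgax and Axl followed each other without a step beyond counting error between neighbours, and the next such step lay between Axl and Lpl, at 1.51 (1.03 to 2.23). This does not make them alike, since the intervals of Cd68, Tyrobp, Trem2 and Apoe all lay above that of Axl (1.35 to 1.94). Itgax, which stood between Apoe and Axl, had a wide interval (1.37 to 6.66).

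The promoter windows of Gpnmb, Cd68 and Trem2 are shown because these 3 genes were higher in STZ against both controls and have 1 RefSeq start each, so that what their starts share can be read. Each window runs from 250 bases before to 50 after the start in build GRCr8 and is written 5′ to 3′ on the gene's strand. Capitals mark TGACTCA, the element bound by AP-1 factors, or its reverse complement TGAGTCA, and GGAAGT, a core of the sites of ETS factors such as PU.1, or ACTTCC. The Trem2 window holds no capitals. Gpnmb lies at chr4:79340878-79341177 on the plus strand, Cd68 at chr10:54882392-54882691 on the minus strand and Trem2 at chr9:20151730-20152029 on the minus strand.
Gpnmb: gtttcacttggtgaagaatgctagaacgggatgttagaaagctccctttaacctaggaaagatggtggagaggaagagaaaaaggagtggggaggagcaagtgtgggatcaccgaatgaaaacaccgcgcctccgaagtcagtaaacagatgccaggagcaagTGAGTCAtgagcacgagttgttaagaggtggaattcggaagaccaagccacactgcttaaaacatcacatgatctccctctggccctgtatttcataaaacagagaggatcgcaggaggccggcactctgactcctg
Cd68: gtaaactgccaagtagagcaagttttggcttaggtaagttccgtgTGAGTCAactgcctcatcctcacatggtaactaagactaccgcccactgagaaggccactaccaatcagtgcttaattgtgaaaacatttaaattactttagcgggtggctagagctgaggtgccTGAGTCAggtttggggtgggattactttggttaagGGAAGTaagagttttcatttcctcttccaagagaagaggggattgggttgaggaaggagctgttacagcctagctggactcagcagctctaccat
Trem2: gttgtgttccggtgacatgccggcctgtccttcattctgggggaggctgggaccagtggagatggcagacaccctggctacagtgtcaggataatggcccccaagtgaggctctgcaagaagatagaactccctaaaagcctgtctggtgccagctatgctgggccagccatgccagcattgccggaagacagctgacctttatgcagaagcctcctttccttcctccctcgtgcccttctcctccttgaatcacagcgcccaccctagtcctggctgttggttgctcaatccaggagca

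The AP-1 element began 87 bases before the start of Gpnmb and 205 and 80 bases before that of Cd68, and the ETS element began 45 bases before that of Cd68. Trem2 held neither. RefSeq windows were at hand for 7 of the 10 genes, all but Tyrobp, Lpl and Lgals3. The AP-1 element was found in 3 of the 7, Itgax being the other, 56 bases before its start, and the ETS element in 2, Cd68 and Itgax. The E-box CACGTG was found in 0 of the 7. Over all 33469 RefSeq windows of this length, searched on both strands, 4.63% held the AP-1 element, 22.6% the ETS element and 6.42% the E-box. These shares are per window, over 27457 genes, while the counts above are per gene, and the 7 genes had 9 windows. The matches did not overlap each other. They are matches of letters and do not show that a factor bound.

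Axl, a receptor of the TAM family that takes up dying cells through the bridging protein Gas6, had 201, 232 and 326 reads (buffer, saline, STZ), or 3.76, 4.35 and 6.09 FPKM. Its folds were 1.49 over buffer and 1.33 over saline, short of the threshold in both. The count ratios, 1.62 (1.35 to 1.94) and 1.4 (1.18 to 1.67), had intervals above 1. The other 2 receptors of the family, Mertk and Tyro3, had ratios of 1.16 (0.959 to 1.39) and 1.09 (0.935 to 1.27) against buffer. Against saline Mertk had a ratio of 1.56 (1.28 to 1.92), an interval that overlaps that of Axl, and Tyro3 one of 1.13 (0.964 to 1.31). Gas6 had 278, 363 and 538 reads and was higher than in buffer by the rule, with a fold of 1.79, but not than in saline, where it was 1.42.

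Itgax encodes CD11c, an integrin subunit that pairs with Itgb2 and marks a minor group of microglia in development and disease. It was the lowest of the 10 genes by FPKM in every library, with 10, 15 and 29 reads and 0.11, 0.15 and 0.29 FPKM (buffer, saline, STZ). The pseudocount of 1 FPKM holds the fold of a gene at this level near 1, here 1.16 over buffer and 1.12 over saline. The count ratios were 2.89 (1.37 to 6.66) and 1.93 (1.00 to 3.87), the latter with its lower bound just above 1. Itgb2, shared with other leukocyte integrins, had 46, 60 and 136 reads and passed the rule against both controls, with folds of 1.82 and 1.61.

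Spp1, which encodes osteopontin, a secreted ligand of integrins, was the gene for which the choice of control decided the comparison. It had 203 reads in buffer, 102 in saline and 217 in STZ, or 7.34, 3.67 and 7.78 FPKM. The STZ library was level with buffer, with a count ratio of 1.07 (0.877 to 1.3), and above saline, with a ratio of 2.12 (1.67 to 2.71) and a fold of 1.88. Saline lay below buffer, with a ratio of 0.503 (0.392 to 0.641). Some retinal ganglion cells also express Spp1, and the 8 ganglion cell genes summed to 7950, 7421 and 8787 reads, a ratio of saline to buffer of 0.934 (0.905 to 0.964). Their part in the Spp1 values was not tested.

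**Figure D2:**
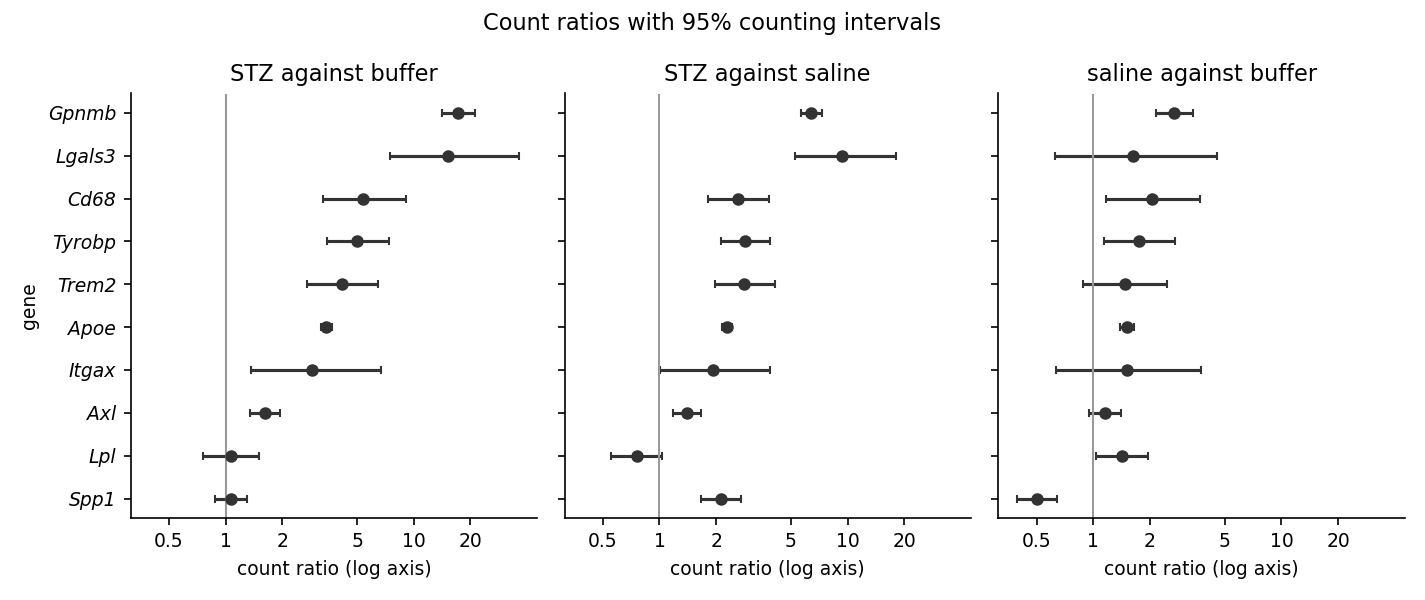
Count ratios (log axis) of the 10 genes in the 3 comparisons, namely STZ with each control and saline with buffer, with bars for the exact 95% counting interval and a line at 1. Gpnmb and Lgals3 stood furthest to the right in both STZ comparisons, Lpl crossed 1 in both, and Spp1 lay below 1 only in saline against buffer.

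The order of levels differed among all 3 libraries, the controls included. In buffer the FPKM ran from Apoe through Spp1, Tyrobp, Axl, Gpnmb, Trem2, Lpl, Cd68 and Lgals3 to Itgax, and the intervals of Spp1 and Tyrobp, of Tyrobp and Axl, and of neighbours from Gpnmb to Lgals3 overlapped. In saline Tyrobp took place 2 and Gpnmb place 3, both apart from their neighbours, and Spp1 place 5. In STZ Gpnmb took place 2 and Tyrobp place 3, both apart from their neighbours. Spp1, Lgals3, Trem2, Axl and Cd68, between 7.78 and 5.01 FPKM, overlapped their neighbours, and Lpl and Itgax were lowest.

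**Figure D3:**
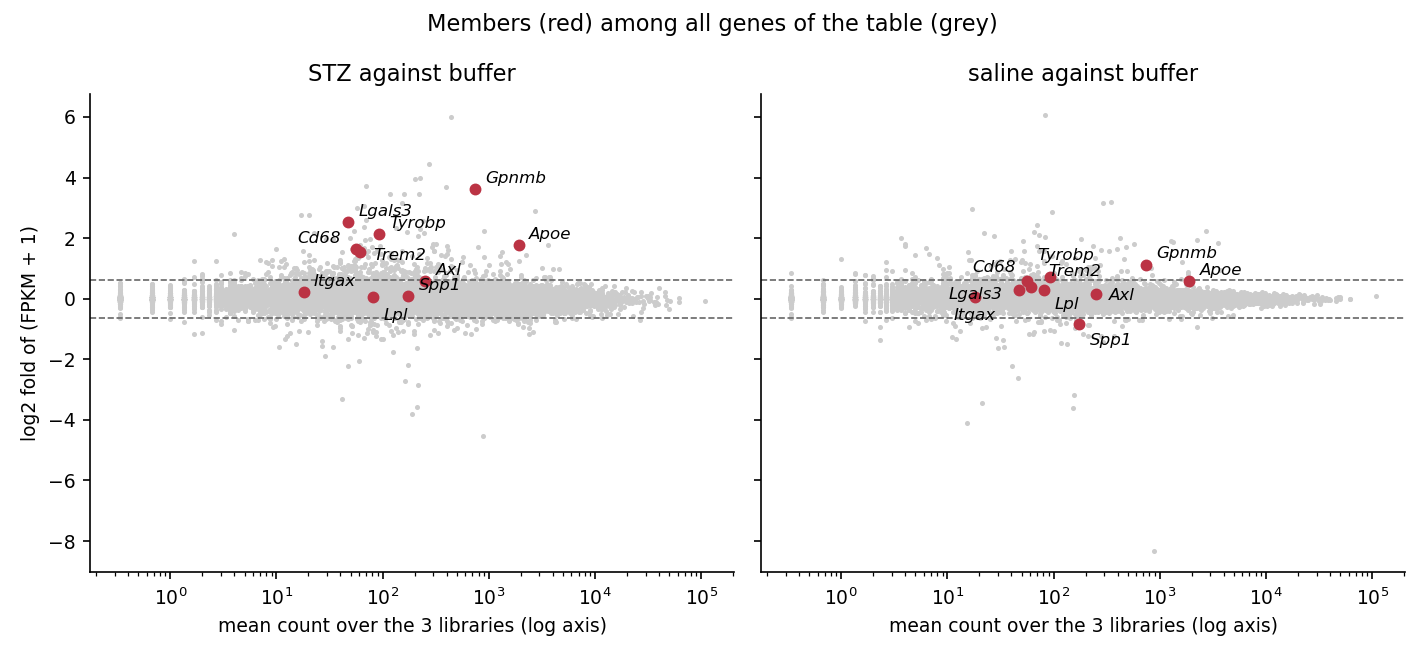
Log2 fold of (FPKM + 1) against the mean count over the 3 libraries (log axis) for STZ against buffer and for saline against buffer, with the 10 genes in red, all other genes of the table in grey and dashed lines at the thresholds. In STZ against buffer 6 red points lie above the upper line, Gpnmb highest, and in saline against buffer Gpnmb and Tyrobp lie above it and Spp1 below the lower line.

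Between the controls, 2 of the 10 genes were higher in saline than in buffer and 1 was lower by the fold rule, where 1.00% of all genes were higher and 0.429% lower. Gpnmb had a fold of 2.18 and Tyrobp one of 1.65, while Spp1, at 0.56, was the lower gene. Cd68 at 1.51 and Apoe at 1.5 were just short of the threshold. The counting interval lay above 1 for 5 of the 10, namely Gpnmb, Cd68, Tyrobp, Apoe and Lpl, beside 13.3% of all genes, and below 1 for 1, beside 9.80%. The count ratios were 2.69 (2.15 to 3.4) for Gpnmb, 2.05 (1.17 to 3.7) for Cd68, 1.75 (1.14 to 2.72) for Tyrobp and 1.51 (1.39 to 1.64) for Apoe. With thresholds of 2 and 0.5, 1 of the 10 was higher (0.391% of all genes) and 0 were lower (0.152%). The median log2 fold of the 10 was 0.34, beside 0.01 over all genes. The 6 genes that were higher in STZ had saline values between those of buffer and STZ. For Trem2 and Lgals3 the step from buffer to saline was within counting error, at 1.47 (0.884 to 2.46) and 1.63 (0.625 to 4.53).

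Genes of other cells moved between the controls as well. The 9 pigment genes were 2.05 times as high in saline as in buffer (1.9 to 2.21). The 7 genes of border macrophages, which sit along vessels and at the edges of the tissue, summed to 18, 112 and 118 reads (buffer, saline, STZ). Among them Folr2, a folate receptor, had 5, 8 and 48 reads, with folds of 2.75 against buffer and 2.44 against saline, and was higher in STZ by the rule against both. Others followed another order. Mrc1 had 4, 43 and 41 reads, Lyve1 had 6, 23 and 14, F13a1 had 1, 19 and 6, and Cd163 had 0, 14 and 1. The 7 monocyte and granulocyte genes summed to 46, 73 and 71 reads, of which Plac8 held 44, 60 and 57. S100a8 and S100a9, which mark granulocytes and monocytes, had at most 5 reads in any library. The 5 lymphocyte genes summed to 131, 175 and 212 reads, of which Cd4, also made by rat macrophages, held 127, 165 and 197. The part of these cells in the values of the 10 genes was not tested.

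The reads of the 10 genes were also counted per 100 reads of the 14 microglia and macrophage identity genes, whichever cells the reads came from. These 14 genes were 2.41 times as high in STZ as in buffer (2.25 to 2.57) and 1.9 times as high as in saline (1.78 to 2.02). By the fold rule 10 of the 14 were higher against buffer (2.25% of all genes) and 8 against saline (2.04%). Relative to them, 6 of the 10 genes were still higher in STZ than in buffer with an interval above 1, 3 had an interval below 1 and 1 an interval that included 1. The share of all genes above or below 1 on this scale was not computed. Gpnmb had 8.63, 18.3 and 61.7 reads per 100 identity reads (buffer, saline, STZ), a change from buffer to STZ of 7.14 times (5.8 to 8.87). Lgals3 had 0.651, 0.834 and 4.12, a change of 6.33 times (3.1 to 15). The lower bounds of both lay above the point estimates of the other 8.

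Cd68, Tyrobp, Trem2 and Apoe exceeded the identity genes by less, at 2.22 (1.36 to 3.8), 2.07 (1.43 to 3.07), 1.72 (1.12 to 2.71) and 1.43 times (1.29 to 1.58). Itgax was at 1.2 times (0.568 to 2.78), an interval too wide to exclude either direction. Axl, Lpl and Spp1 were lower than in buffer relative to the identity genes, at 0.673 (0.556 to 0.816), 0.444 (0.314 to 0.629) and 0.443 times (0.36 to 0.546). A gene with an unchanged share of reads would also come out lower here, since the identity genes were 2.41 times as high. By count ratio Lpl and Spp1 were level with buffer, both at 1.07, and Axl was higher, at 1.62. The values relative to identity genes depended on the reference. With homeostatic microglia genes in its place Axl was at 1.14 times (0.944 to 1.38), Lpl at 0.752 (0.533 to 1.06) and Spp1 at 0.75 (0.612 to 0.92). Without Olfml3, which held the largest part of the homeostatic reads, they were at 0.71 (0.584 to 0.865), 0.469 (0.331 to 0.666) and 0.468 (0.379 to 0.579). Against saline the intervals of Lgals3, Gpnmb, Tyrobp, Trem2 and Apoe were above 1 and those of Axl and Lpl below 1. In saline against buffer Gpnmb at 2.12 times (1.67 to 2.71) and Apoe at 1.19 times (1.06 to 1.33) had intervals above 1, and Spp1, at 0.396 times (0.306 to 0.511), one below 1.

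**Figure D4:**
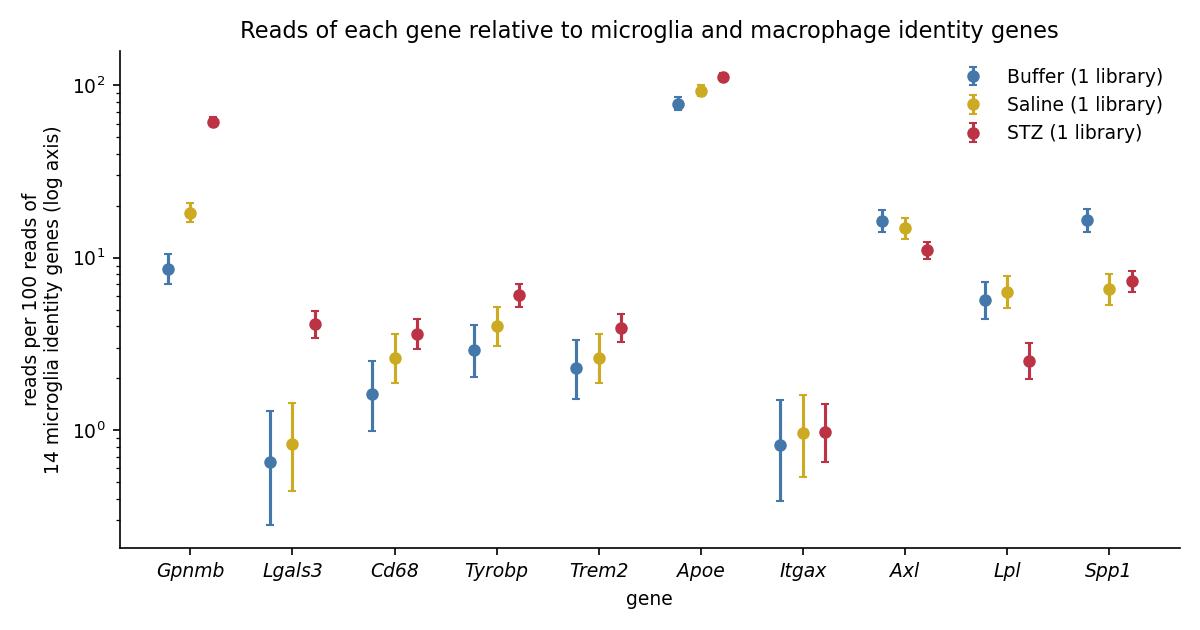
Reads of each of the 10 genes per 100 reads of the 14 microglia and macrophage identity genes (log axis) in the 3 libraries, with bars for the exact 95% binomial interval. From buffer to STZ Gpnmb went from 8.63 to 61.7 and Lgals3 from 0.651 to 4.12, while Lpl went from 5.7 to 2.53.

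Homeostatic microglia genes mark surveying microglia and are lower in the program as described in disease. Of 10 measured, 6 were higher in STZ than in buffer (2.25% of all genes) and 0 were lower (1.04%). The same 6 genes were higher than in saline (2.04% of all genes). Fcrl2, which stands for mouse Fcrls here, Cx3cr1, Gpr34 and Sall1 had folds of 3.48, 2.42, 2.1 and 1.63 against buffer. The purinergic receptor gene P2ry12, with 81, 78 and 129 reads, had a fold of 1.27. Olfml3, with 1233, 1194 and 932 reads, held the largest part of the 2194, 2170 and 3126 reads of the list and had a count ratio of 0.755 (0.692 to 0.822) against buffer. The list had a median log2 fold of 0.69 against buffer, 0.65 against saline and -0.05 in saline against buffer. The identity genes had medians of 0.93, 0.77 and 0.23.

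Of 23 measured further genes of the disease-associated program, 11 were higher in STZ than in buffer (2.25% of all genes) and 0 lower (1.04%). Against saline 8 were higher (2.04%) and 0 lower (1.75%). Lyz2, which encodes lysozyme, had 86, 195 and 456 reads, with a fold of 4.45 against buffer, although its counts are partly fractional estimates. Capg, which caps actin filaments, had 22, 32 and 173 reads, with a fold of 3.96. The cathepsin genes Ctsz, with 159, 225 and 522 reads, and Ctsd, with 2935, 3324 and 5904, had folds of 2.97 and 1.99. Single genes that are often used to define the program were scarce, and they are named here after their values were seen. Cst7 had 2, 3 and 1 reads, too few for a fold, and Ccl3 had 3, 7 and 14. Ccl3 was higher than in buffer by the rule, with a fold of 1.75 and a count ratio of 4.66 (1.3 to 25.3). Its fold against saline was 1.37, short of the threshold. Clec7a, a receptor for fungal glucans, had 6, 8 and 40 reads. It was higher by the rule against both controls, with folds of 1.63 against buffer and 1.56 against saline. The pseudocount holds folds at such low levels near 1, and the count ratios of Clec7a were 6.66 (2.8 to 19.2) and 4.99 (2.3 to 12.3).

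Of the 18 genes of Trem2 and Tyrobp signaling, 5 were higher in STZ than in buffer (2.25% of all genes) and 4 than in saline (2.04%). In either comparison 0 were lower (1.04% and 1.75% of all genes). Those past the rule against both controls were Cd33, Ptpn6, Inpp5d and Vav1, with folds of 2.37, 2.2, 2.14 and 1.94 against buffer. Cd33 encodes an inhibitory receptor, Ptpn6 and Inpp5d phosphatases that dampen such signals, and Vav1 an activating exchange factor. Syk, the kinase that binds phosphorylated Tyrobp, had 51, 77 and 129 reads, with a fold of 1.47, short of the threshold, with a count ratio of 2.52 (1.81 to 3.56). Adam10 and Adam17, whose products shed Trem2 from the surface, had folds of 0.968 and 0.899.

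Of 21 genes of the uptake of dying cells, 2 were higher in STZ than in buffer (2.25% of all genes) and 0 lower (1.04%). Against saline 1 was higher (2.04%) and 0 lower (1.75%), so the latter count was near the share of all genes. The list had a median log2 fold of 0.17 against buffer and 0.14 against saline. Most of its genes are expressed well outside microglia. The 2 genes higher than in buffer were Gas6 and Itgb2, and Itgb2 was the 1 higher than in saline. By gene, 11 of the 21 intervals of STZ to buffer lay above 1 (21.7% of all genes) and 4 below (15.5%). Mfge8, a bridging protein made by many cells, was among the 4. It had 4871, 4736 and 3994 reads, with a fold of 0.818 against buffer.

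Of 19 measured genes of lipid handling, 3 were higher in STZ than in buffer (2.25% of all genes) and 1 was higher than in saline (2.04%). Angptl4, which encodes a secreted inhibitor of lipoprotein lipase, had 77, 85 and 515 reads (buffer, saline, STZ), with folds of 4.88 against buffer and 4.55 against saline. Abca1, which loads lipid onto Apoe particles, had 926, 1636 and 2211 reads, with folds of 1.96 against buffer and 1.24 against saline. Abcg1 had folds of 1.24 and 1.17.

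**Figure D5:**
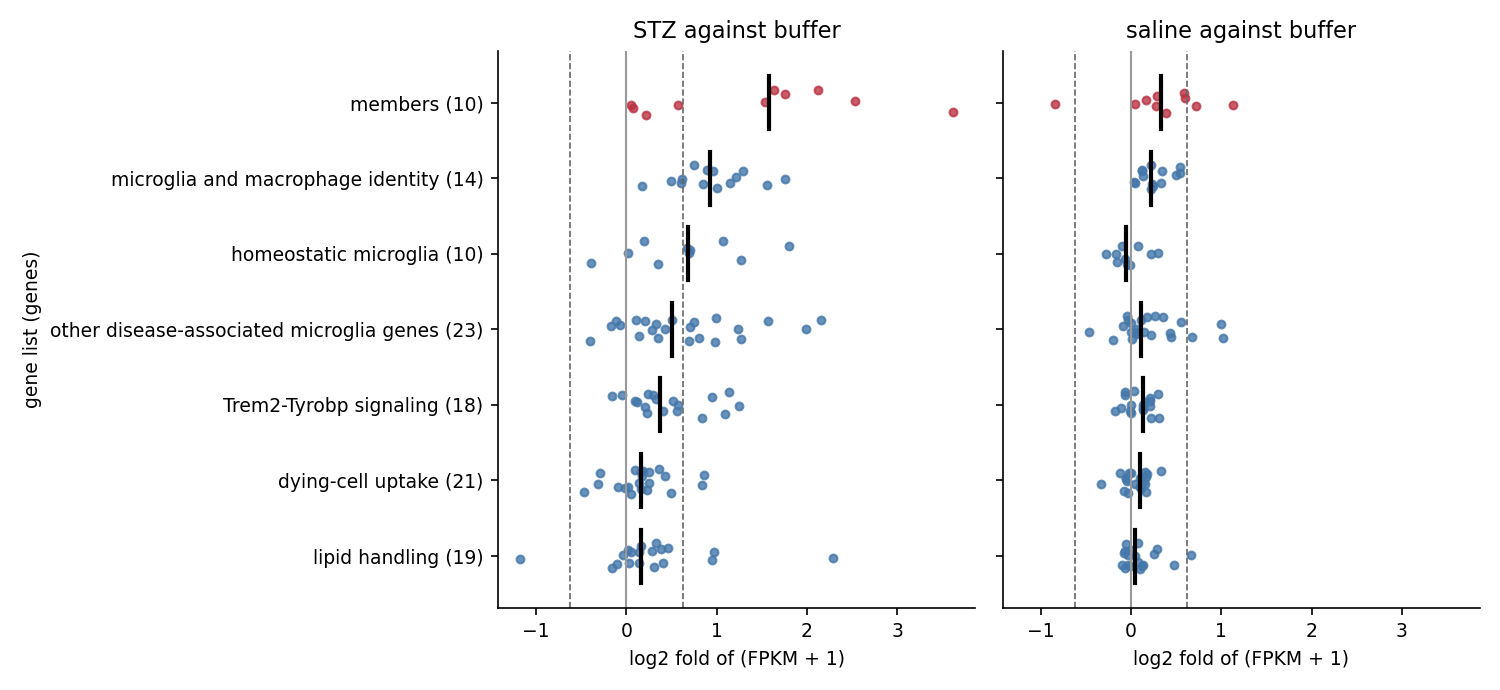
Log2 fold of (FPKM + 1) of the 10 genes (red) and of the genes of 6 related lists (blue) in STZ against buffer and in saline against buffer, with 1 point per gene, a black bar at each list's median and dashed lines at the thresholds. The 10 genes had the highest median in STZ against buffer, at 1.58, beside 0.93 for the identity genes and 0.69 for the homeostatic genes.

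Over the 3 libraries, the 5 genes nearest to the median pattern of the 10 were Fcer1g, Fermt3, C1qc, Mgmt and C1qb, by the distance in the plane of the log2 ratios of saline to buffer and of STZ to buffer over the 12807 genes whose mean count reached 50. Their distances were between 0.055 and 0.127 on the log2 scale, from a median of 0.58 in saline and 1.9 in STZ. Fcer1g had 44, 68 and 170 reads and C1qc 149, 216 and 591. Fcer1g encodes a signaling adaptor of Fc receptors and C1qb and C1qc encode chains of complement C1q, while Mgmt, with 28, 44 and 102 reads, encodes the repair enzyme for alkylated guanine. A pattern over 3 libraries rests on 2 ratios and many genes can share it.

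The summed reads of vessel genes were lower in STZ. The 8 endothelial genes summed to 13821, 15172 and 10173 reads, of which Kdr held 13149, 14564 and 9972. By gene, 6 of the 8 intervals of STZ to buffer lay below 1 (15.5% of all genes) and 0 above (21.7%). Their median log2 fold was -0.49, and Cldn5, Cdh5 and Tie1 were lower by the fold rule, with count ratios of 0.196, 0.235 and 0.247. The 6 pericyte genes summed to 462, 426 and 204 reads. The 10 lens genes summed to 272, 663 and 2670 reads, and thus also differed between all 3 libraries. The 5 red blood cell genes summed to 464, 590 and 343 reads. Whether these differences bear on the values of the 10 genes was not tested.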

How the data were processed

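RNA of dissected P4 retinas was sequenced in 3 libraries, 1 each for buffer, saline and STZ. According to the methods and the submitters' processing notes, the authors checked reads with FastQC, trimmed them, mapped them to the rat genome (rn6) with TopHat2, discarded reads with several locations and computed FPKM with a custom R script; the annotation is not given in the sources used here. The deposited table holds FPKM, TPM and estimated read counts per gene. The per-library tables hold the same values (largest difference 0). Estimated counts as deposited are fractional in at least 1 library for 2858 of the 18425 genes and for 0 of the 10 members, and were rounded to whole numbers.

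Folds were (FPKM + 1)/(FPKM + 1), with thresholds of 1.54 and 0.65 as in the study's methods, computed for the whole table. Count ratios have exact Clopper-Pearson 95% intervals. Ratios relative to identity genes, and ratios of ratios, have exact conditional intervals. The members and gene lists were chosen with earlier results of these data known, and the other genes named are those past a threshold against both controls, whose mean count reached 10, up to 4 per list and direction, or genes a result turns on. Some genes outside that rule, Mfge8 among them, are named as well. Of 18425 identifiers, 17120 matched RefSeq (GRCr8), used for symbols and promoter windows only. List genes without a row were not analysed here, and the genes of lipid handling that were lower are not reported here. No count model was fitted, since there are no replicates. Alternatives were a pseudocount of 0.1, TPM or CPM, TMM factors (edgeR 4.0.16), median-of-ratios factors (DESeq2 1.42.0), a minimum mean of 10 counts, thresholds of 2 and 0.5, the counting interval, both controls averaged and other reference lists. Python 3.11.15, scipy 1.17.1 and R 4.3.3 were used. The calculations were tested on simulated data.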

Additional observations from a re-analysis of the deposited data

How the results depend on the processing

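No paired analysis was possible because each group has 1 library, and for the same reason no replicate could be left out. The numbers of genes past the fold rule in STZ against either control stayed within 1.5 times of the reported ones under every alternative tried. Against buffer Axl passed the upper threshold with a pseudocount of 0.1 (log2 fold 0.681), with TPM (0.626) and with CPM (0.64). Itgax passed it with a pseudocount of 0.1 (0.893), CPM (0.671), TMM factors (0.653) and median-of-ratios factors (0.654). Against saline Itgax passed it with a pseudocount of 0.1 (0.642). In saline against buffer, the 2 genes that were higher became 1 with CPM, with TMM factors, with median-of-ratios factors or with thresholds of 2 and 0.5, and 5 by the counting interval. The 1 lower gene became 0 with thresholds of 2 and 0.5. The median log2 fold ran from 1.32 to 1.89 against buffer, from 1.06 to 1.26 against saline and from 0.34 to 0.58 in saline against buffer. Relative to homeostatic genes in place of identity genes, the genes with an interval below 1 became 1 of 10 against buffer (Spp1), where 3 were reported, and 1 against saline (Lpl), where 2 were, Axl turned from 0.673 to 1.14 times against buffer, and 5 had an interval above 1 in saline against buffer, where 2 were reported. Leaving Olfml3 out of the homeostatic genes, chosen after its values were seen, gave 3 below 1 in STZ against buffer, as with the identity genes (Axl, Lpl and Spp1). It gave 5 above 1 in saline against buffer and 2 above 1 in STZ against saline (Gpnmb and Lgals3), where 5 were reported for the latter. Against saline the log2 fold of Lgals3 exceeded that of Gpnmb with a pseudocount of 0.1 (3.07 and 2.65) and with TPM (2.62 and 2.58), but not with CPM (2.04 and 2.59). The cause of these shifts was not tested. The log2 fold of Itgax against buffer ran from 0.19 to 0.89 over the alternatives, highest with the pseudocount of 0.1, and with 10 reads in buffer a change under its interval would not be detectable.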
